A study of Mus musculus with 2 samples.

Results

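Endothelin signalling was described here by 4 genes, the ligand Edn1, the converting enzyme Ece1 and the receptors Ednra and Ednrb, which are 4 of the 24543 genes listed in the count tables of a single-cell RNA-seq experiment on CD31+CD44+ cells. The genes were proposed with their levels in these cells already known, so the levels below are a description and were not tested, and only the comparison of genotypes was tested. They came from the caudal region of mouse embryos at embryonic day 10 and were isolated by flow cytometry. The cKO embryos were VEC-Cre;Nupr1 fl/fl, in which Cre is driven by a Cdh5 transgene and so acts in endothelium and in the blood cells that arise from it, and the control embryos were littermates carrying Nupr1 fl/fl or Nupr1 fl/+ alleles. Hashtagged cells of both genotypes were loaded together, in 1 pool for each of 2 replicates, and no barcode was shared by the 2 pools. The 2139 deposited cells comprised 334 control and 344 cKO cells in pool 1 and 748 control and 713 cKO cells in pool 2.

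As background, endothelin-1 is made as a long precursor that is cut first by furin-type convertases and then by endothelin-converting enzyme, which releases the active peptide. The peptide acts on receptors that couple to G proteins: EDNRA, known from vascular smooth muscle and neural crest derivatives, and EDNRB, known from endothelium, where it is linked to nitric oxide release and to clearance of the peptide, and from neural crest. Endothelial cells are the classical source of the ligand, and its transcription is known to depend on GATA2 and AP-1.

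Cells were grouped by marker transcripts alone, without the 4 genes, and the UMIs (unique molecular identifiers, which count captured transcripts) of each group were summed for each genotype and pool, giving 4 sums for each of 6 groups. Levels are UMIs of a gene per 1000000 UMIs of the sum (UPM). At least 2 UMIs of Gja5, an arterial connexin, marked 392 arterial cells. At least 1 UMI each of Kitl and Esm1 marked 92 cells (Kitl/Esm1 cells, the markers proposed for vascular plexus), Nr2f2 with Aplnr marked 83 venous cells, and Gfi1 with Neurl3 marked 247 cells in endothelial-to-hematopoietic transition (EHT cells). At least 2 UMIs of Mrc1 marked 460 macrophages, and P2ry12 with Tmem119 marked 97 microglia-like cells. A further 99 cells met the markers of more than 1 group, 68 of them those of both macrophage groups, and 669 cells met none.

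The groups were checked against markers that the gates had not used. Gja4, another arterial connexin, was at 1424 UPM in arterial and 46.2 UPM in venous cells. Of the venous markers, Nrp2, a venous and lymphatic co-receptor, was at 212 UPM in venous and 5.98 UPM in arterial cells. Flt4 was at 67.3 UPM in venous and 30.0 UPM in arterial cells. Ephb4 went the other way, at 53.7 UPM in venous and 64.4 UPM in arterial cells. The Kitl/Esm1 cells differed from arterial cells on some markers and not on others. Gja4 was at 1584 UPM in them and 73 of the 92 also passed the Gja5 gate, while Hey2, an arterial transcription factor, was at 16.9 UPM against 59.8 UPM in arterial cells. Of the plexus markers, Apln was at 16.3 UPM against 0.698 UPM in arterial cells, Angpt2 at 1.34 against 2.15 UPM and Plvap at 986 against 1227 UPM, so these cells are named here by their gate. Runx1 was at 204 UPM in EHT and 31.4 UPM in arterial cells, but also at 177 UPM in microglia-like cells and 119 UPM in macrophages. Hlf was at 106 UPM in EHT and 8.73 UPM in arterial cells. In the same groups Kit was at 102 and 20.98 UPM, and Gfi1b at 15.7 and 2.32 UPM. Procr went the other way, at 145 UPM in EHT and 170 UPM in arterial cells. EHT cells also held transcripts of the myeloid granule genes Mpo (217 UPM) and Prtn3 (370 UPM). Macrophages carried Dab2 (644 UPM) and Lyve1 (167 UPM), but Cd163 was near 0 (0.021 UPM). Sums ranged from 300728 to 13067018 UMIs, and the microglia-like sums of pool 1 rested on 6 control and 5 cKO cells.

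The genes lie on 4 chromosomes of GRCm38 and are protein coding in GENCODE M21: Edn1 at chr13:42301476-42307990 on the plus strand, Ece1 at chr4:137862237-137965229 on the plus strand, Ednra at chr8:77663031-77724464 on the minus strand and Ednrb at chr14:103814625-103844402 on the minus strand. RefSeq promoters (GRCm38.p6, 250 bases before to 50 bases after an annotated start) were matched for 4 of the 4 genes, in 7 entries, of which 4 belonged to Ece1. The promoters of Edn1 and of Ece1, whose levels rose and fell together over the sums, are shown with that of Ednrb, whose level did not follow them. Each is read 5′ to 3′ on the strand of its gene, with matches in capitals to GATAA (GATA factors), TGANTCA or TGACTAA (forms of the AP-1 site) and GAGGAA (the core of PU.1 sites) on either strand. They lie at chr13:42301226-42301525 (plus strand), chr4:137861987-137862286 (plus strand, the most upstream entry) and chr14:103843652-103843951 (minus strand).
Edn1: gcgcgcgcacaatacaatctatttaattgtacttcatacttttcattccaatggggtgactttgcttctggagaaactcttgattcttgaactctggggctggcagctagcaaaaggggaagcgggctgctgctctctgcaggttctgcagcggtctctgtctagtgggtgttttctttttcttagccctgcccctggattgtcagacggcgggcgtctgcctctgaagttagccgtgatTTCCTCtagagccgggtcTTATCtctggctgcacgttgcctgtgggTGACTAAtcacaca
Ece1: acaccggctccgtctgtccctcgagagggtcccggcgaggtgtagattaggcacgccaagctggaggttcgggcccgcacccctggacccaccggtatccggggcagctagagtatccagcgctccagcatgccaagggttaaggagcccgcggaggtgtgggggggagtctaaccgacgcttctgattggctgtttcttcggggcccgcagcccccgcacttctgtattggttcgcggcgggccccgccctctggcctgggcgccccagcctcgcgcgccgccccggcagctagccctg
Ednrb: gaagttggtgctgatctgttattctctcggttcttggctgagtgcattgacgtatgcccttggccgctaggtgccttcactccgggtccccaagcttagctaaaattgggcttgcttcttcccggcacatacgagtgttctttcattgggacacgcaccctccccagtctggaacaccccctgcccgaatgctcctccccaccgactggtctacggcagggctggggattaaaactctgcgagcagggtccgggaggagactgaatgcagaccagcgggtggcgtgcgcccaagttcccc

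In the Edn1 window, TTCCTC, which is GAGGAA on the opposite strand, began 10 bases before the annotated start, TTATC, which is GATAA on the opposite strand, began 8 bases after it, and TGACTAA began 36 bases after it. No match overlapped another. The Ece1 and Ednrb windows shown, like the other Ece1 entries, held none of the motifs, which says only that these letters are not in these windows. The RefSeq start of Ednrb lies inside the gene as GENCODE M21 gives it, so the whole Ednrb window is downstream of the GENCODE start and the bases before that start were not searched. Of 32851 promoters of the same length, GATAA was found in 25.4%, TGANTCA in 7.81%, TGACTAA in 2.35% and GAGGAA in 28.3%. A match is a description of letters and not a bound site.

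Edn1, the ligand, had its highest mean level in arterial cells. Its arterial level was 374 UPM in control and 334 UPM in cKO cells of pool 1 and 302 UPM in control and 420 UPM in cKO cells of pool 2. These values gave a mean of 358 ± 51.2 UPM (SD, n = 4), and the genotypes interleaved. Arterial cells made up 18.3% of all cells and held 61.4% of all 5763 Edn1 UMIs. The Kitl/Esm1 cells spread more widely, with 187 UPM (control) and 78.5 UPM (cKO) in pool 1 and 362 UPM (control) and 273 UPM (cKO) in pool 2. Their mean was 225 ± 121 UPM (SD, n = 4), and their range overlapped that of arterial cells. When each cell was instead given to the group of its highest marker score, the mean of this group was 82.8 UPM and that of arterial cells 284 UPM. Among the Kitl/Esm1 cells Edn1 was at 268 UPM in the 73 with at least 2 Gja5 UMIs and at 66.1 UPM in the other 19. This difference was not seen in every sum: the cKO cells of pool 1, which gave 10 of the 19, had 67.4 UPM at 2 or more Gja5 UMIs and 92.8 UPM below, the opposite of the other sums.

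Edn1 was lower outside the arterial cells and near 0 in the macrophage groups. Venous cells had 43.9 UPM (control) and 21.5 UPM (cKO) in pool 1 and 110 UPM (control) and 98.5 UPM (cKO) in pool 2, so that the pools differed more than the genotypes. EHT cells had 48.2 UPM (control) and 67.2 UPM (cKO) in pool 1 and 73.2 UPM (control) and 34.6 UPM (cKO) in pool 2, with a mean of 55.8 ± 17.7 UPM (SD, n = 4), which was 19.1 UPM with groups by marker score. Of the 247 EHT cells, 88 also passed the Gja5 gate of arterial cells. The 64 of them with at least 5 Gja5 UMIs held 517 of the 827 Edn1 UMIs of EHT cells. The ranges of venous and EHT cells overlapped, and both lay below the arterial range in each pool. Macrophages had 0 to 1.91 UPM, which was 39 UMIs in 28753017, and microglia-like cells had 0 to 6.65 UPM, which was 4 UMIs.

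Ece1, the enzyme that releases the active peptide, was at similar levels in arterial and Kitl/Esm1 cells. In arterial cells it was at 176 UPM in both genotypes of pool 1, and at 159 UPM (control) and 174 UPM (cKO) in pool 2, and in Kitl/Esm1 cells at 195 UPM (control) and 171 UPM (cKO) in pool 1 and 197 UPM (control) and 196 UPM (cKO) in pool 2. The means of 171 ± 8.15 and 190 ± 12.4 UPM (SD, n = 4 each) belonged to ranges that overlapped. Venous cells ranged from 49.8 to 89.0 UPM and EHT cells from 25.1 to 64.5 UPM, and these ranges overlapped each other and lay below the arterial range. The EHT mean of 51.2 UPM was 22.4 UPM with groups by marker score. The 64 EHT cells with at least 5 Gja5 UMIs held 417 of the 761 Ece1 UMIs of EHT cells. Macrophages (4.43 to 7.47 UPM) and microglia-like cells (3.41 to 13.6 UPM) had the lowest levels.

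Ednra, the receptor of smooth muscle and mesenchyme, was scarcely captured. All cells together held 92 Ednra UMIs in 62 cells, of which 11 lay in a single cell that met the markers of more than 1 group. Arterial cells had 23 UMIs and 2.30 ± 1.37 UPM (SD, n = 4), EHT cells 18 UMIs and 1.18 ± 0.891 UPM, venous cells 7 UMIs, and the Kitl/Esm1 and microglia-like cells 1 UMI each. Neighbouring ranges in this order all overlapped. Macrophages had 0 of 28753017 UMIs, which allows a level of up to 0.104 UPM. Of the 62 cells with a UMI, 17 also carried at least 5 UMIs of the mesenchymal genes Actc1, Tagln, Myog, Pdgfra and Col1a1, as did 134 of the other cells, and these 17 cells held 34 of the 92 UMIs. What part mesenchymal RNA had in the Ednra UMIs was not tested.

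Ednrb, the receptor known from endothelium, was instead highest in macrophages. Macrophages had 112 UPM (control) and 113 UPM (cKO) in pool 1 and 184 UPM (control) and 182 UPM (cKO) in pool 2. Control and cKO cells of a pool lay close together, while pool 2 lay above pool 1, and the mean was 148 ± 40.5 UPM (SD, n = 4). Macrophages were 21.5% of all cells and held 77.7% of all 6432 Ednrb UMIs. The next group was venous cells, with 29.8 UPM (control) and 13.8 UPM (cKO) in pool 1 and 38.3 UPM (control) and 54.4 UPM (cKO) in pool 2, all below the macrophage range. The last of these values came from 9 cells.

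The other groups followed at lower Ednrb levels. Arterial cells had 29.3 UPM (control) and 10.5 UPM (cKO) in pool 1 and 19.4 UPM (control) and 30.1 UPM (cKO) in pool 2. Most arterial Ednrb lay in few cells: the 40 of 392 cells with the most held 84.8% of the UMIs, and 1 control cell of pool 1 held 53 UMIs among its 39349, with 11 Gja5 UMIs, 20 Cdh5 UMIs and 0 of Mrc1 and Ptprc. Without this cell the control sum of pool 1 was at 10.3 UPM. Kitl/Esm1 cells had 11.2 ± 5.07 UPM, microglia-like cells 11.1 ± 8.95 UPM and EHT cells 3.20 ± 2.10 UPM (SD, n = 4 each), and from venous cells down neighbouring ranges overlapped.

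**Figure D1:**
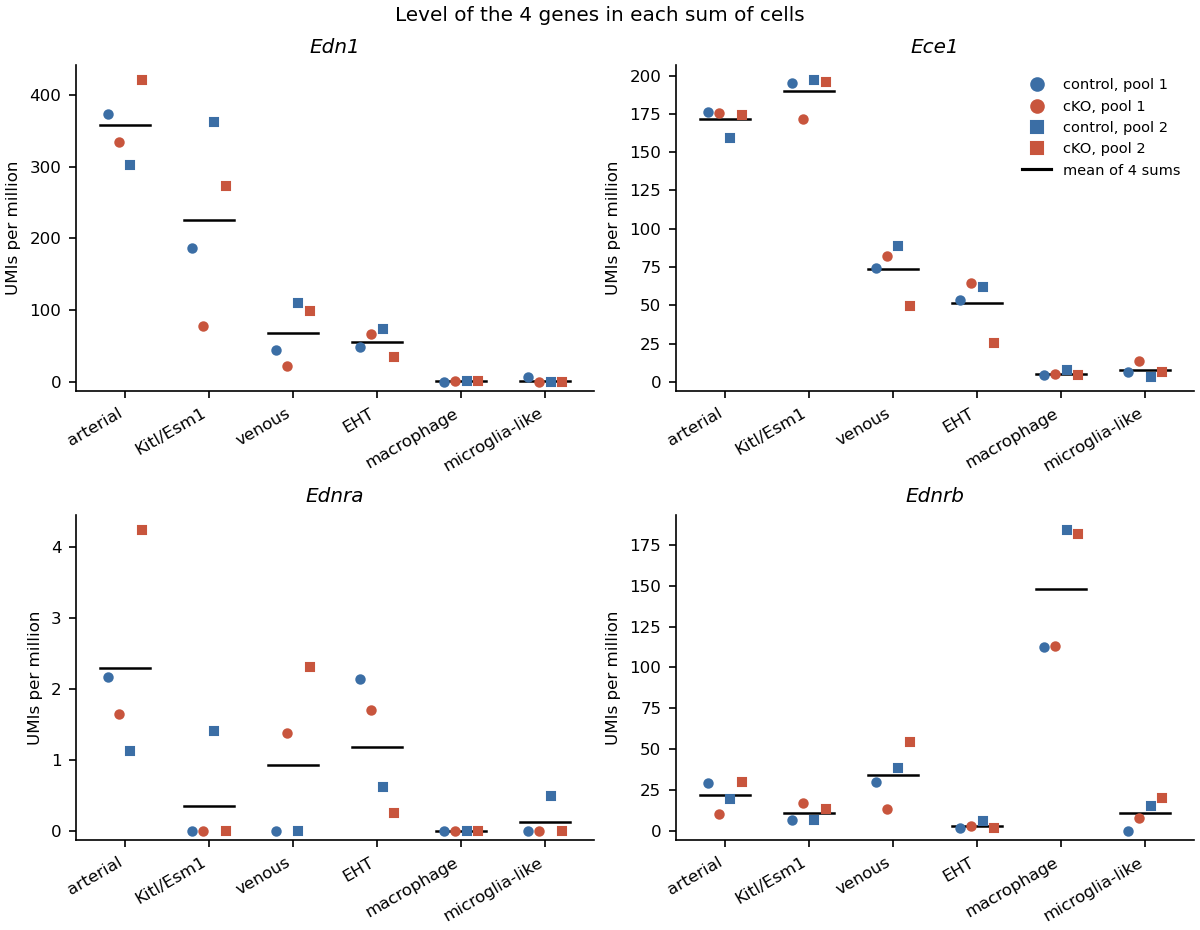
Level of Edn1, Ece1, Ednra and Ednrb (UPM, with a scale of its own in each panel) in the 6 cell groups. Each point is 1 sum, blue for control and red for cKO, circles for pool 1 and squares for pool 2, and the line is the mean of the 4 sums: Edn1 and Ece1 stand high in arterial and Kitl/Esm1 cells, and Ednrb is highest in macrophages at 112 to 184.

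Whether ranges of 4 sums overlap was also counted for every gene with a mean of at least 1 UPM over the groups compared. Edn1, Ece1 and Ednrb, 3 of the 4 genes, lay higher in arterial than in EHT cells with no overlap, as did 24.4% of 11838 genes. Edn1 and Ece1 did so in arterial against venous cells, as did 20.4% of 11606 genes, and in EHT cells against macrophages, as did 27.4% of 11505 genes. Ednrb lay higher with no overlap in macrophages than in arterial cells (19.7% of 11817 genes), venous cells (18.5% of 11470 genes) and microglia-like cells (9.74% of 10773 genes). Since such separation was common and these genes were chosen for their levels, nothing is read from these counts about the 4 genes.

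The differences held within each pool. Arterial Edn1 averaged 354 UPM in pool 1 and 361 UPM in pool 2, against 57.7 and 53.9 UPM in EHT cells and 32.7 and 104 UPM in venous cells. Macrophage Ednrb averaged 113 UPM in pool 1 and 183 UPM in pool 2, against 19.9 and 24.8 UPM in arterial cells.

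Cells with at least 1 UMI were also counted, a share that depends on depth. Edn1 was found in 333 of 392 arterial cells, 84.9% (exact binomial 95% interval 81.0 to 88.3), at a median of 23404 UMIs per cell. In macrophages, which had a median of 60463 UMIs, it was found in 6.96% (4.81 to 9.68). It was also found in 11 of 195 cells of no group with at least 20 Pf4 and 2 Gp1bb UMIs, which are megakaryocyte genes (5.64%, at a median of 83107 UMIs), and the source of the UMIs in either was not tested. After each cell was thinned to 6000 UMIs, leaving out 15 shallower arterial and 4 shallower macrophage cells, the shares were 63.7% of arterial, 39.1% of Kitl/Esm1, 20.6% of EHT, 13.3% of venous and 0.219% of macrophage cells. Ece1 at this depth was in 70.7% of Kitl/Esm1, 62.3% of arterial, 33.7% of venous, 28.3% of EHT and 1.75% of macrophage cells. The intervals cover counting error only.

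Ednrb was found in 425 of 460 macrophages, 92.4% (89.6 to 94.6), and in 34.0% (24.7 to 44.3) of microglia-like, 50.6% (39.4 to 61.8) of venous, 19.1% (15.4 to 23.4) of arterial and 14.2% (10.1 to 19.2) of EHT cells. As a background, 3 of the same 195 cells with megakaryocyte genes held an Ednrb UMI (1.54%). Thinned to 6000 UMIs, Ednrb was in 54.2% of macrophages, 16.9% of venous, 7.96% of arterial, 6.19% of microglia-like and 2.83% of EHT cells. An Ednra UMI was in 0 of 460 macrophages, which allows up to 0.652% of cells with a UMI at this depth (3 cells of 460) and sets no limit on cells that express the gene, and in 5.36% (3.35 to 8.07) of arterial cells.

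**Figure D2:**
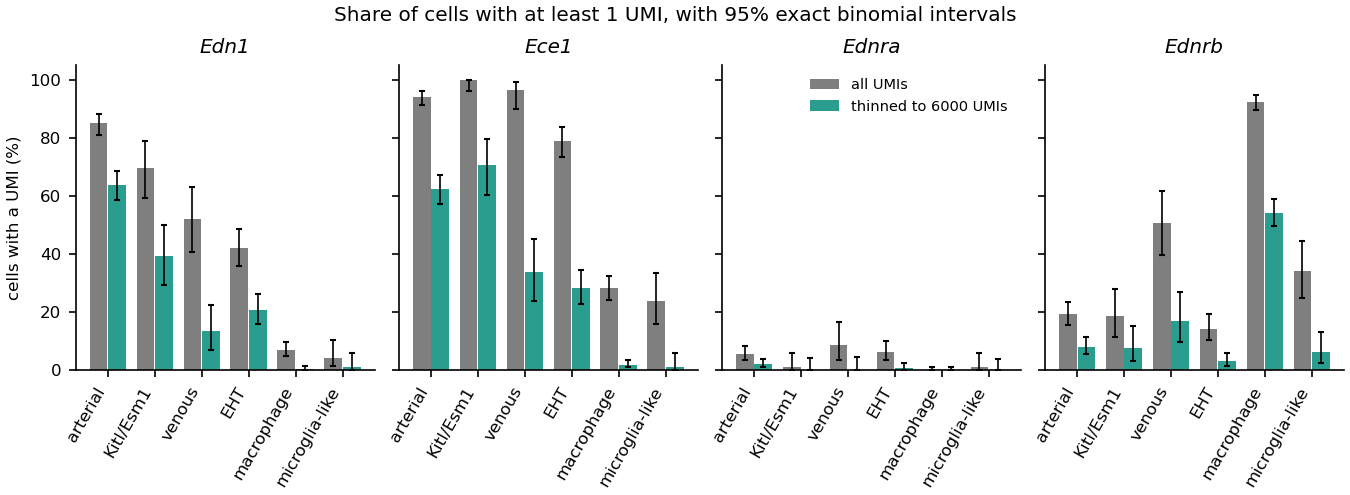
Share of cells (%) with at least 1 UMI of each gene in the 6 cell groups, from all UMIs (grey) and after thinning each cell to 6000 UMIs (green). Error bars are exact binomial 95% intervals. Thinning lowers every share that is above 0, and macrophages keep the highest Ednrb share at 54.2%.

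Ligand and enzyme were often captured in the same cell. Of the 333 arterial cells with Edn1, 316 also held Ece1 (94.9%), against 89.8% of the 59 without Edn1. Of 104 EHT cells with Edn1, 99 held Ece1 (95.2%), against 67.1% of the 143 without. In Kitl/Esm1 cells the share was 100% with or without Edn1, and in venous cells it was 95.3% with and 97.5% without, so of these 4 groups the EHT cells had the widest gap. Deeper cells hold more of any transcript, and at 6000 UMIs 152 of 377 arterial and 31 of 247 EHT cells held both. Of the arterial cells with Edn1, 67 held an Ednrb UMI (20.1%), and 18 of 377 arterial cells held both ligand and receptor at 6000 UMIs.

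Within the groups, Edn1 and Ednrb changed with marker transcripts. EHT cells were not gated on Gja5, and Edn1 was at 22.2 UPM in the 129 with no Gja5 UMI, 9.57 UPM in the 30 with 1, 82.1 UPM in the 24 with 2 to 4 and 144 UPM in the 64 with at least 5. Ece1 in the same bins was at 22.3, 43.3, 61.8 and 116 UPM. With no Gja5 UMI the Edn1 level differed widely between sums. It was 11.5 UPM (control) and 53.8 UPM (cKO) in pool 1 and 27.5 UPM (control) and 4.88 UPM (cKO) in pool 2. Much of the EHT Edn1 lay in few cells: the 25 of 247 with the most held 64.1% of the UMIs, and 1 cell held 89. By transcripts of Ptprc, which encodes the pan-leukocyte antigen CD45, Edn1 was at 91.9 UPM in the 143 EHT cells with none, 23.9 UPM in the 58 with 1 to 2 and 9.64 UPM in the 46 with at least 3. Both pools gave the lowest Edn1 level at 3 or more Ptprc UMIs and the highest at 5 or more Gja5 UMIs. The cKO sum of pool 2 did not fall at each step of Ptprc, with Edn1 at 35.9, 56.1 and 16.1 UPM. Median depth in the Gja5 bins ran from 61417 UMIs at no Gja5 UMI to 50148 at 5 or more, and in the Ptprc bins from 46599 to 67831.

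Over both pools together, macrophage Ednrb rose with Mrc1, the mannose receptor gene that gated these cells. It was at 60.5 UPM in the 59 cells with 2 to 4 Mrc1 UMIs, 117 UPM in the 53 with 5 to 9, 162 UPM in the 114 with 10 to 19 and 220 UPM in the 234 with at least 20, and median depth stayed between 55918 and 63265 UMIs. In pool 2, where each bin had at least 47 cells, the levels were 62.3, 125, 167 and 241 UPM. In pool 1 they were 13.95, 45.0, 87.4 and 130 UPM, but the first 3 bins held 7, 6 and 8 cells. Median depth in pool 1 was 5399 UMIs in the first bin and 65597 in the last. The control cells of pool 1 showed no rise, at 137, 130, 85.8 and 120 UPM, from 2, 1, 4 and 14 cells. The 68 cells with both Mrc1 and the microglia-like markers, which were in no group, had 107 UPM. In arterial cells the Edn1 level at 20 or more Gja5 UMIs was 394 UPM against 253 UPM at 2 to 4, where median depth was 26406 and 13592 UMIs. From the lowest to the highest Gja5 bin, pool 1 had 115, 216, 248 and 430 UPM. Pool 2 had 410, 259, 391 and 358 UPM, which was no steady trend, and its lowest bin held 11 cells. Median depth in the lowest bin was 6322.5 UMIs in pool 1 and 26251 in pool 2. In the highest bin it was 26856 and 26323 UMIs. The part of depth in the rise of pool 1 was not tested.

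**Figure D3:**
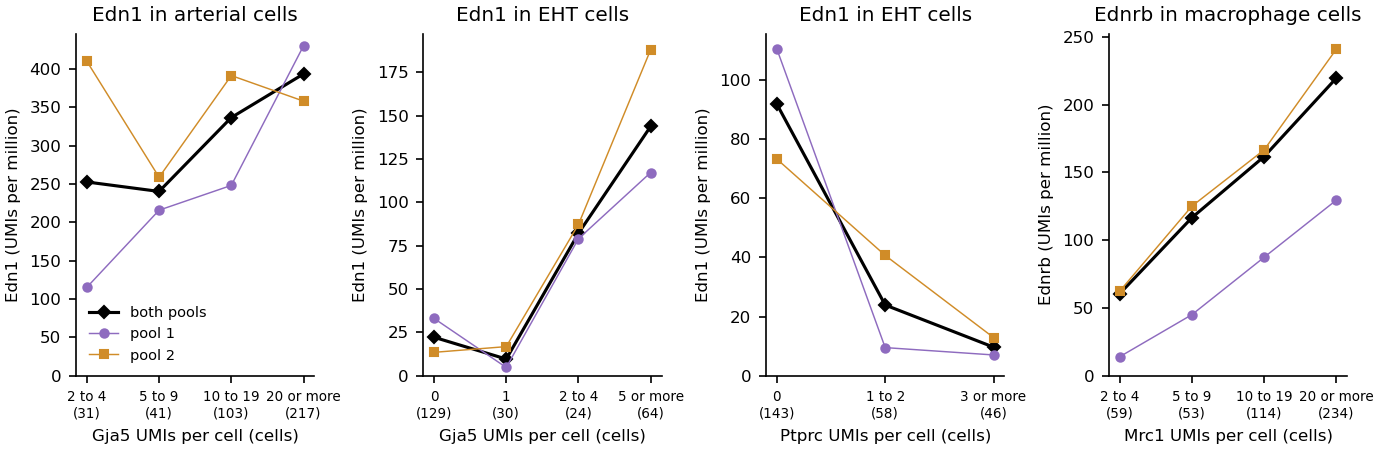
Edn1 or Ednrb level (UPM) in cells binned by the UMIs of a marker gene, with the number of cells in each bin in brackets. Black diamonds are both pools together, circles pool 1 and squares pool 2: Edn1 in EHT cells is 144 at 5 or more Gja5 UMIs and 9.64 at 3 or more Ptprc UMIs, and macrophage Ednrb goes from 60.5 to 220 with Mrc1.

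The genes with the most similar pattern were sought by Pearson's r of log2(UPM + 1) over the 24 sums among 7749 to 7750 genes with a mean of at least 10 UPM, marker genes of the gates left out. The sums share pools and cell groups, so r is a description. For Edn1 these were Prnp (r = 0.978), which encodes the prion protein, Nrarp (0.977), a target of Notch, and Tspan2 (0.974), a tetraspanin. For Ece1 they were Mmrn2 (0.991), Cd93 (0.986) and Col4a2 (0.984), the first a multimerin of endothelium and the last a basement membrane collagen chain. Edn1 and Ece1 had r = 0.945 with each other, and Edn1 and Ednrb r = -0.295. For Ednrb they were Dab2 (0.932), an endocytic adaptor, and the scavenger receptors Colec12 (0.886) and Stab1 (0.884). Dab2 was at 644 UPM in macrophages and 32.8 UPM in microglia-like cells, beside 148 and 11.1 UPM of Ednrb. For Ednra, which rests on few UMIs, the leading genes were Slk (0.752), Wdr6 (0.738) and Isl1 (0.729).

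A list of 39 other genes of endothelin biology was described in the same groups. The other ligands were almost absent, with 3 UMIs of Edn2 and 51 of Edn3 in all cells, and in arterial cells both were at 0. Of the convertases and peptidases, Pcsk5, a furin-type convertase, was at 124 ± 9.84 UPM in arterial and 0.120 UPM in macrophages, and Furin at 31.4 ± 4.17 and 5.60 UPM, while Ece2, a relative of Ece1, was between 20.2 and 33.3 UPM in all 6 groups. Among the G proteins, Gnai2 was between 513 and 1819 UPM, Gnai3 was between 44.6 and 103 UPM, and Gna11, of the Gq class, was at 114 UPM in arterial cells and 11.97 UPM in macrophages. The β-arrestin gene Arrb2 was at 91.7 UPM in macrophages and 12.4 UPM in arterial cells.

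Of the regulators of Edn1, Gata2 was at 60.7 UPM in arterial and 60.5 UPM in EHT cells and at 1.83 UPM in macrophages. Jun, an AP-1 subunit, had its highest mean in EHT cells, 2549 UPM against 1115 UPM in arterial cells, Fos was at 124 and 239 UPM, and Klf2, a flow-responsive factor, was at 305 and 710 UPM. The levels of Jun, Fos and Klf2 varied widely between sums (SD of 339, 102 and 247 UPM in arterial cells). The other vasoactive genes differed in their levels. Ramp2 and Calcrl, which form an adrenomedullin receptor, were at 2559 and 473 UPM in arterial cells, and Nos3, the endothelial nitric oxide synthase, at 96.9 UPM. Ace, the angiotensin-converting enzyme, was at 18.8 UPM there, and the angiotensin receptor genes Agtr1a and Agtr2 were at 0 and 0.138 UPM. The peptide genes Adm and Apln had higher means in Kitl/Esm1 cells (30.0 ± 13.9 and 16.3 ± 24.0 UPM; SD, n = 4 each) than in arterial cells (2.73 and 0.698 UPM).

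Arterial cells lay above EHT cells with no overlap for 17 of 30 list genes tested (24.4% of all genes), among them Furin, Pcsk5, Nos3 and Klf2, and above venous cells for 12 of 30 (20.4% of all genes). Macrophages lay above arterial cells for 5 of 30 (19.7% of all genes), which were Ece2, Gna13, Plcb2, Arrb2 and Adrbk1 (the symbol the tables use for Grk2), above venous cells for 4 of 30 (18.5%) and above microglia-like cells for 2 of 24 (9.74%). EHT cells lay above macrophages for 8 of 27 (27.4%). Nothing is read from these counts about the list.

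**Figure D4:**
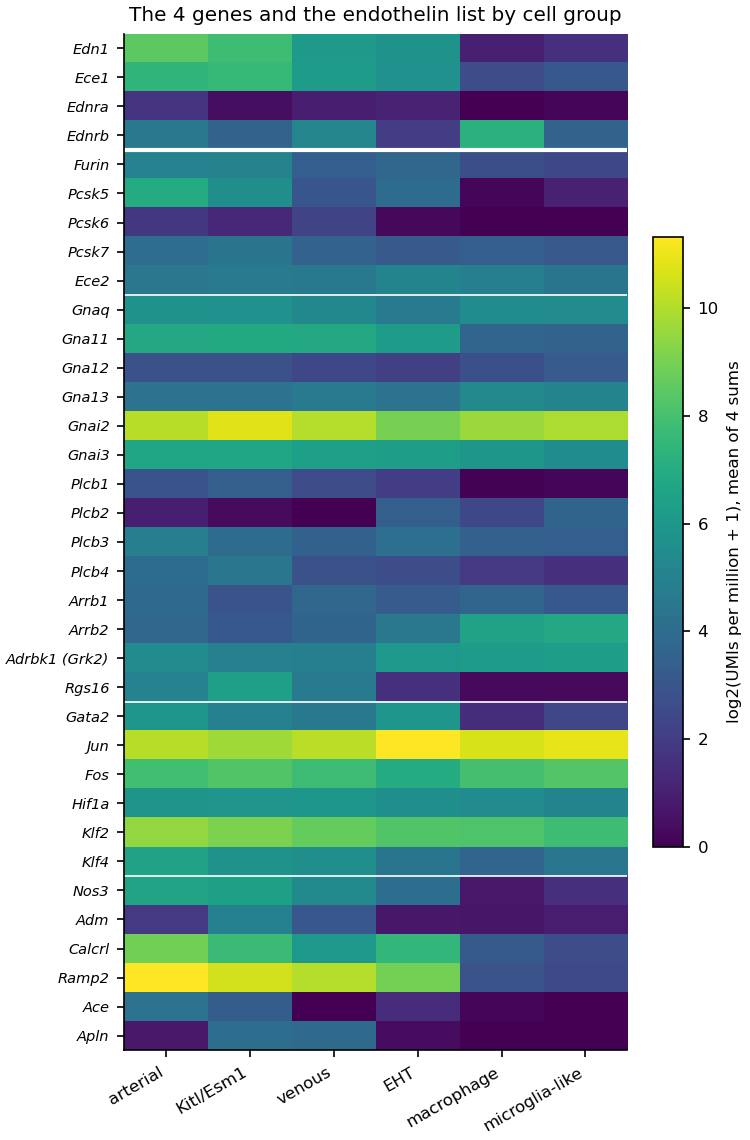
Mean of 4 sums, as log2(UPM + 1), of the 4 endothelin genes (above the thick line) and of the list genes with a mean of at least 1 UPM, by cell group. Blocks from the top are convertases and peptidases, G proteins and signalling, regulators of Edn1 and other vasoactive genes: Pcsk5 and Nos3 are high in arterial cells and low in macrophages, and Arrb2 is higher in macrophages.

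The comparison of genotypes asks whether endothelial loss of Nupr1 changes these genes. Nupr1 itself, the targeted gene, was at 0.573 and 1.50 UPM in all cKO cells of pools 1 and 2 and at 14.4 and 21.5 UPM in control cells. In EHT cells it was at 35.1 and 27.2 UPM in control and 1.96 and 2.51 UPM in cKO cells, a log2 fold change of -3.76 ± 0.43 (standard error; edgeR quasi-likelihood test, adjusted p = 0.00666). The share of cells with Xist and no Y-linked transcript also moved with genotype, from 92.8% and 98.7% of control cells to 0.872% and 57.6% of cKO cells in pools 1 and 2. In pool 1 sex and genotype therefore cannot be told apart. In pool 2 sex ran with genotype in the same direction, in part of the cells. The comparison of genotypes thus carries a difference of sex in both pools, and the part of sex in the results was not tested.

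None of the 4 genes passed edgeR's test in any of the 4 groups tested, and none had an unadjusted p under 0.05 in this main fit. The main fit did not pair the genotypes by pool, so differences between the pools entered its error. Its p-values measure the spread between 2 sums per genotype. No gene at all was called in arterial cells (0% of 10088 tested, 119 at an unadjusted p under 0.05 and 0 by DESeq2), Kitl/Esm1 cells (0% of 7303, 361 and 13) or macrophages (0% of 10415, 30 and 0), and 2 were called in EHT cells (0.0193% of 10345), Nupr1 and the predicted gene Gm5483. Gm5483 was at 20.1 and 33.8 UPM in control and 0 and 0.753 UPM in cKO EHT cells. In macrophages Nupr1 was not called, at 28.3 and 40.1 UPM in control and 0 and 2.14 UPM in cKO cells. Nor was it called in arterial cells, at 4.34 and 12.7 UPM in control and 0 and 3.09 UPM in cKO cells. The test thus missed the targeted gene in both groups. A lack of calls there does not show that a gene was unchanged. Venous cells were not tested because a sum held 9 cells, nor were microglia-like cells. Ednra was too low for the test in each group, and Edn1 in macrophages. With the pool as a block, which pairs the genotypes, 149 genes were called in Kitl/Esm1 cells, 9 in macrophages, 4 in arterial cells and 0 in EHT cells, and none of the 4 genes was among them. In that fit 484 genes in arterial, 810 in Kitl/Esm1 and 479 in macrophage cells had an unadjusted p under 0.05. In EHT cells there were 265, against 68 in the main fit. Edn1 in Kitl/Esm1 cells had an unadjusted p of 0.00138 by edgeR with the block.

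In arterial cells, Edn1 had a log2 fold change, cKO over control, of 0.16 ± 0.25 and Ece1 of 0.06 ± 0.22 (standard errors; edgeR adjusted p = 1.00 for each). Ednrb had -0.21 ± 0.43 there, and its change was -1.24 without the cKO sum of pool 2 and 0.32 without that of pool 1. In macrophages Ednrb had -0.01 ± 0.36, with control and cKO levels of each pool within 3 UPM of each other, and Ece1 had -0.44 ± 0.42. In EHT cells Edn1 had -0.25 ± 0.34, Ece1 -0.36 ± 0.37 and Ednrb -0.75 ± 0.67, with an edgeR adjusted p of 1.00 for each.

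The EHT sums also differed in markers of other cells. The cKO sum of pool 2, which had the lowest Edn1 (34.6 UPM) and Ece1 (25.1 UPM), had the highest summed level of the myeloid progenitor genes Mpo, Elane, Prtn3 and Fcgr3 (1527 UPM, against 118 in the cKO sum of pool 1 and 517 and 573 in the control sums) and of the megakaryocyte list (588 UPM against 38.1 to 80.7). All 4 genes of each list were captured in EHT cells. In the other 3 sums Edn1 did not follow the myeloid list, since the control sum of pool 2 had the highest Edn1 (73.2 UPM) with the second highest myeloid level. The summed arterial markers were in the same order as Edn1 in the 4 sums, at 204 UPM in the cKO sum of pool 2, 222 UPM in the control and 258 UPM in the cKO sum of pool 1, and 435 UPM in the control sum of pool 2. Without the cKO sum of pool 2 Edn1 had a change of 0.12 and Ece1 of 0.14, and with groups by marker score they had 0.33 and 0.15. The part of these cells in the change was not tested.

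Kitl/Esm1 cells held 0 Nupr1 UMIs in the control and cKO sums of both pools, so loss of Nupr1 could not be seen in this group. In Kitl/Esm1 cells Edn1 had a log2 fold change of -0.61 ± 0.65 (edgeR adjusted p = 0.999) and was lower in cKO than in control cells of both pools. With the pool as a block it was -0.70 ± 0.19 (adjusted p = 0.0639). With groups by marker score the direction turned, to 1.03 (edgeR adjusted p = 1.00). The change also depended on single sums: without the cKO sum of pool 2 it was -1.77 with an edgeR adjusted p of 6.08e-05, and without that of pool 1 it was 0.03. In the cKO sum of pool 2, 1 of 25 cells held 89 Edn1 UMIs, and without that cell the level was 202 in place of 273 UPM. Summed arterial markers, like Edn1, were lowest in the cKO sum of pool 1 (1353 UPM) and highest in the control sum of pool 2 (2512 UPM). Between these the order differed. The control sum of pool 1 had 2362 UPM of these markers and 187 UPM of Edn1, the cKO sum of pool 2 had 2202 and 273 UPM. The part of arterial markers in the change was not tested. Ednrb had 1.15 ± 0.54 (edgeR adjusted p = 0.999), with 9 UMIs in control and 31 in cKO cells. In the cKO sum of pool 2, 1 cell held 9 of the 14 Ednrb UMIs, and without it the level was 4.95 in place of 13.5 UPM, below the 7.04 UPM of the control sum of that pool. Ece1 had -0.06 ± 0.22.

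**Figure D5:**
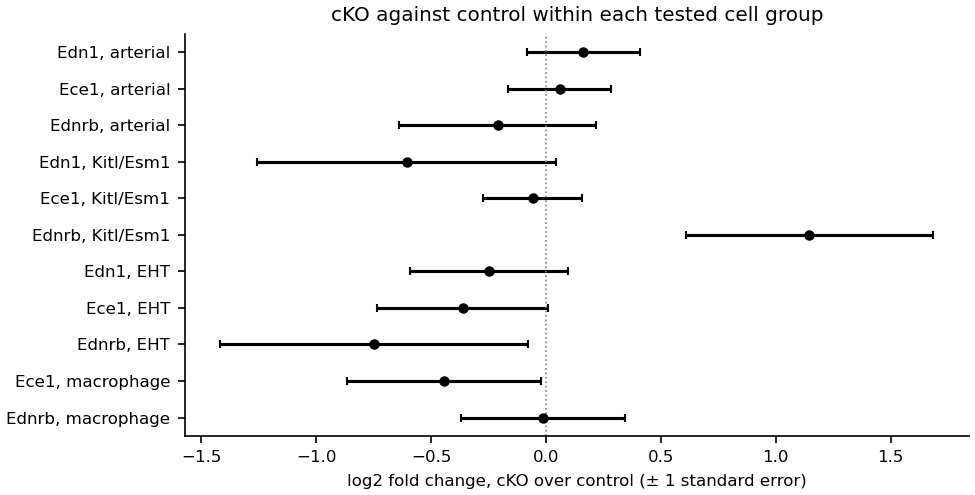
Log2 fold change of the cKO over the control sums, with 1 standard error (edgeR), for each gene that could be tested in arterial, Kitl/Esm1, EHT and macrophage cells. None had an adjusted p under 0.05, and the largest values, 1.15 for Ednrb in Kitl/Esm1 cells and -0.75 for Ednrb in EHT cells, come from low levels.

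The cKO effect was compared between Kitl/Esm1 and arterial cells in 1 fit over their 8 sums. The difference of log2 fold changes, Kitl/Esm1 minus arterial, was -0.75 ± 0.79 for Edn1, -0.12 ± 0.20 for Ece1 and 1.40 ± 0.86 for Ednrb (edgeR adjusted p = 0.914, 0.945 and 0.753), while 67 of 9405 genes (0.712%) were called. Of the list of 39, none of the 23 to 27 genes tested was called in a group. At an unadjusted p under 0.05 there were 0 of 27 in arterial, 3 of 23 in Kitl/Esm1, 0 of 26 in EHT and 1 of 23 in macrophage cells, and the median log2 fold change of the list was 0.06, 0.22, 0.14 and 0.01, against 0.01, 0.00, 0.01 and -0.01 over all genes tested.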

How the data were processed

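CD31+CD44+ cells of control and cKO embryos were hashtagged, pooled and run on 10x Chromium in 2 replicates. The authors aligned the reads with Cell Ranger 5.0.1 (mm10, per the processing notes), kept hashtag singlets with HTODemux, and deposited a table of unnormalized UMI counts and the hashtag of every cell. The 4 genes and all lists were chosen with earlier results of these data known. The stated limits (over 1800 genes, over 6000 UMIs, under 5% mitochondrial reads) were not met by 101 deposited cells, which were kept, and no doublet caller was run. Among cells of the 6 groups, those outside the limits were all from pool 1. Under the limits the arterial cells of pool 1 went from 121 to 90 (control) and from 79 to 59 (cKO). Cells were gated on marker UMIs, with cuts set on the markers alone; Kitl/Esm1, venous and EHT markers took precedence over Gja5, and other double matches were left out. Depth was 14981582 and 17448703 UMIs for control and cKO cells of pool 1 and 45473589 and 46037450 of pool 2. Sums per genotype and pool (n = 2 per genotype) were tested in groups with at least 10 cells per sum with edgeR 4.0.16 (filterByExpr, TMM, robust quasi-likelihood test, Benjamini-Hochberg adjustment over all genes tested, threshold 0.05). The paper calls the pools independent replicates, and their cKO cells differed in the share with Xist and no Y-linked transcript; the number of embryos per pool is not given in the sources used here, so p-values measure the spread between pools. Pools pair the genotypes: sums of a pool deviated together from the genotype means (r = 0.424, 0.309, 0.412 and 0.516 across genes in arterial, Kitl/Esm1, EHT and macrophage cells). The main fit within a group did not use this pairing. Named genes are the 4 genes, the 3 most alike to each, up to 3 genes of the highest level per role of the list, Nupr1 and the most significant gene of a test; Arrb2, Gata2, the other genes named in overlap counts and Gm5483 were chosen after their values were seen. Alternatives were a pool block, DESeq2 1.42.0, RLE factors, no filter, each sum left out, cuts 1 UMI higher, groups by marker score, the stated limits, means over cells and thinning. The procedure was tested on simulated data.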

Additional observations from a re-analysis of the deposited data

Results flagged for a closer look

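Of the 23 gene and cell group pairs tested, 6 had 1 of 4 sums far from the others (Dixon's test at 95%), which chance gives in about 1 of 20 groups. For Ece1 these were the control sum of pool 2 in arterial cells (159 UPM, the others 174 to 176), the cKO sum of pool 1 in Kitl/Esm1 cells (171 UPM, the others 195 to 197) and the control sum of pool 2 in macrophages (7.47 UPM, the others 4.43 to 4.91). The other 3 rest on 1 or 2 UMIs: Edn1 in the microglia-like control sum of pool 1 (6.65 UPM, 2 UMIs in 6 cells) and Ednra in the control sums of pool 2 of Kitl/Esm1 (1.41 UPM, 1 UMI) and microglia-like cells (0.488 UPM, 1 UMI). A lone UMI among 4 sums is always flagged, so the chance rate does not apply to the Ednra pairs.

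The 768 cells in no group also held transcripts of the 4 genes above the 3 counts that a count of 0 allows: 313 UMIs of Edn1 (5.65 UPM), 647 of Ece1 (11.7 UPM), 42 of Ednra (0.759 UPM) and 867 of Ednrb (15.7 UPM). Among them, the 68 cells with markers of both macrophage groups had 107 UPM of Ednrb, the 84 cells of no group with at least 2 Cdh5 UMIs had 24.2 UPM of Edn1 and 50.4 UPM of Ece1, and the 250 with at least 5 Mpo UMIs had 7.17 UPM of Ednrb.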

How the results depend on the processing

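The differences of level kept their direction and moved by less than 1 SD of the 4 paired differences in all 40 alternatives tried. In 20 of these 1 sum was left out, and those could not have come out otherwise. Dropping 1 of 4 values cannot move their mean by 1 SD, and the ranges compared did not overlap. Leaving out 1 sum gave 274 to 326 UPM for Edn1 in arterial minus EHT cells, 275 to 321 for Edn1 in arterial minus venous cells, 111 to 128 for Ece1 in arterial minus EHT cells, 113 to 140 for Ednrb in macrophages minus arterial cells and 126 to 147 for Ednrb in macrophages minus microglia-like cells. Of the 15 pairs of cell groups, the number in another order was 1 for Ece1 and Ednrb and 4 for Ednra with groups by marker score, 1 for Ednrb and 2 for Ednra with higher cuts, 2 for Ednra by means over cells, and 0 to 1 for Edn1, Ednra and Ednrb without 1 sum. The number of genes called changed far more. It was 4, 149, 0 and 9 (arterial, Kitl/Esm1, EHT, macrophage) with the pool as a replicate block, 5, 96, 38 and 5 without a filter, 13 in Kitl/Esm1 cells with DESeq2, 5 in Kitl/Esm1 and 1 in EHT cells with higher cuts and 0 in EHT cells by marker score. Leaving out 1 sum, which leaves a lone sum assumed to vary like the others, gave 1 to 13, 30 to 136, 3 to 74 and 8 to 45. Among the 4 genes the call changed once, for Edn1 in Kitl/Esm1 cells without the cKO sum of pool 2. Signs of uncalled log2 fold changes turned 21 times. By marker score they were -0.029 for arterial Edn1, 1.03 and 0.077 for Kitl/Esm1 Edn1 and Ece1, 0.33 and 0.15 for EHT Edn1 and Ece1 and 0.16 for macrophage Ednrb. With higher cuts they were 0.040 for Kitl/Esm1 Ece1 and 0.072 for macrophage Ednrb, which was 0.00059 with the block. Leaving out 1 sum gave -0.043 to 0.33 and -1.24 to 0.32 for arterial Edn1 and Ednrb, -1.77 to 0.025 and -0.16 to 0.030 for Kitl/Esm1 Edn1 and Ece1, -0.72 to 0.12, -1.11 to 0.14 and -1.40 to 0.35 for EHT Edn1, Ece1 and Ednrb, and -0.67 to 0.20 and -0.47 to 0.49 for macrophage Ece1 and Ednrb. The causes were not tested. Ednra, with 92 UMIs in all cells, was below the count filter of the test in each group.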
